A study of Mus musculus with 6 samples.

Results

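Canonical transient receptor potential (TRPC) channel genes were read in 6 RNA sequencing libraries of EGFP-positive cells sorted from mouse dorsal root ganglia, which hold the cell bodies of body sensory neurons. The members were fixed by name as Trpc1, Trpc2, Trpc4, Trpc5, Trpc6 and Trpc7, and all 6 were found by Ensembl identifier among the 41388 genes of the deposited count tables. The list does not hold every canonical TRPC gene, so each statement on order is about these 6 alone. The libraries were 3 from female and 3 from male C57BL/6 mouse embryos at 18.5 days post coitum, taken from ganglia T11 to S1. The genotype label reads RetFloxedEGFP / Scn10a<tm2(cre)Jnw> for 5 libraries and RetFloxedEGFP/ alone for male C. All libraries were sorted for EGFP, which in this cross marks Ret cells that expressed Cre from the Nav1.8 (Scn10a) locus, and no unaltered or EGFP-negative group was analysed here. Male C came from 20 ganglia of 1 embryo, male B from 60 ganglia of 3 pooled embryos and each other library from 40 ganglia of 2 pooled embryos. Nothing says how sorts or litters were shared, and p-values reflect library-to-library spread only, which may be partly technical.

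TRPC proteins form tetrameric cation channels in the plasma membrane that let sodium and calcium in after receptors activate phospholipase C. Trpc6 and Trpc7 encode channels opened directly by diacylglycerol, Trpc4 and Trpc5 encode a closely related pair coupled to Gq- and Gi-linked receptors, and Trpc1 encodes a subunit that often joins other TRPC subunits. Trpc2 encodes the transduction channel of vomeronasal sensory neurons and is a pseudogene in humans. In sensory neurons TRPC channels have been studied as partners in mechanical, cold and itch responses.

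Total counts ranged from 15693013 reads in male C to 24033601 reads in female B. The sort genes Scn10a and Ret averaged 119 ± 16.8 and 27.8 ± 3.82 RPKM (SD, n = 6). RPKM is the read count scaled for gene length in kilobases and for TMM-normalised library size. All 10 neuron markers were detected, led by Stmn2 and Tubb3. Genes listed as markers of other cells were read too. The 10 satellite glia and Schwann markers summed to between 881 and 989.0 RPKM in female and between 975.0 and 1056 RPKM in male libraries. Pmp22, Fabp7 and Apoe led at 346, 310 and 175 RPKM. The others averaged from 69.8 RPKM for S100b down to 0.494 RPKM for Foxd3, with Sox10 at 3.78 RPKM. The 10 endothelial and mural markers summed to between 17.6 and 20.2 RPKM in female and between 16.2 and 24.4 RPKM in male libraries. In that list the pericyte genes Rgs5 and Pdgfrb led at 9.87 and 4.78 RPKM. The smooth muscle genes Tagln, Acta2 and Myh11 averaged 2.13, 0.839 and 0.130 RPKM. The endothelial genes Cdh5, Pecam1, Cldn5, Tek and Kdr averaged 0.476, 0.399, 0.188, 0.184 and 0.167 RPKM. The 8 fibroblast and meningeal markers summed to between 153 and 175 RPKM in female and between 149.7 and 172 RPKM in male libraries. Dcn led at 133 RPKM, ahead of Col1a1 at 10.5 RPKM, and Foxc1 and Twist1 were lowest at 0.0585 and 0.0577 RPKM. Erythroid markers set male A apart: the 5 genes, mainly globins, summed to 1256 RPKM there, against 49.3 to 223 RPKM in females and 41.3 and 165 RPKM in the other males. None of the 6 macrophage markers reached a mean of 1 CPM (read count scaled for library size alone). The TRPC signal cannot be assigned to a cell type in these bulk libraries: fewer cells of a type and less RNA per cell cannot be told apart, and the part of glial, vascular, fibroblast or blood cells in it was not tested.

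Of the 6 genes, 4 were detected above a mean of 1 CPM, in the RPKM order Trpc4, Trpc6, Trpc1 and Trpc7, while Trpc5 and Trpc2 were at or near 0 reads. Trpc4 made up 38.8% to 53.3% of the summed RPKM of the 6 genes in each library, Trpc6 17.8% to 30.3%, Trpc1 15.4% to 25.4% and Trpc7 4.22% to 9.46%. The sum was 13.0 (A), 10.02 (B) and 11.1 (C) RPKM in females, against 9.59 (A), 9.72 (B) and 10.2 (C) RPKM in males. For comparison, 32.2% of all listed genes reached a mean of 1 CPM.

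**Figure D1:**
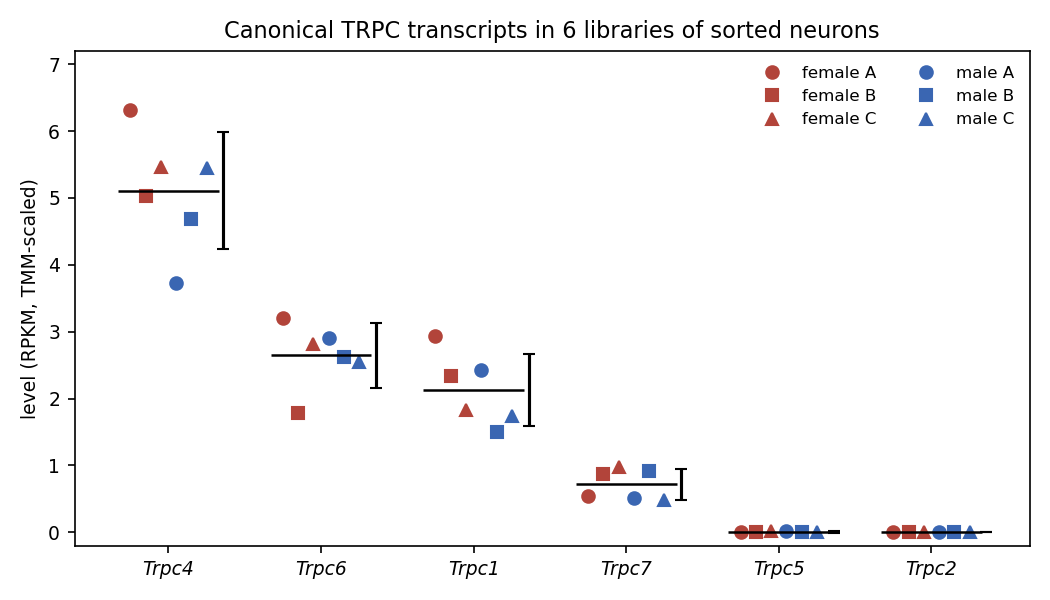
Level of each TRPC gene (RPKM, vertical axis) in each library, with female libraries in red and male in blue; black lines are means and bars to the right of the points SD over the 6 libraries. Trpc4 lies between 3.72 and 6.31 RPKM, above the other genes in each library, and Trpc5 and Trpc2 lie at or near 0.

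Trpc4 (ENSMUSG00000027748, GRCm38.p2, chromosome 3, 54156057 to 54318470, plus strand, 11 exons of 3472 bases in all) was the most abundant member. Its level was 6.31 (A), 5.03 (B) and 5.46 (C) RPKM in females, against 3.72 (A), 4.69 (B) and 5.44 (C) RPKM in males. Female A was highest and male A lowest, and the sexes overlapped. Male A is also the library high in erythroid transcripts, and without it the mean was 5.39 RPKM for Trpc4, 2.59 for Trpc6, 2.07 for Trpc1 and 0.759 RPKM for Trpc7. The Trpc4 reads numbered 281 to 452 per library. The mean of 5.11 ± 0.870 RPKM (SD, n = 6) was higher than the mean level of 83.9% of all listed genes. Of all listed genes 37.7% had 0 reads in every library.

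The diacylglycerol-gated member Trpc6 (ENSMUSG00000031997, chromosome 9, 8544196 to 8680565, plus strand, 13 exons of 3029 bases) came next. It stood at 3.20 (A), 1.78 (B) and 2.81 (C) RPKM in females, against 2.91 (A), 2.62 (B) and 2.55 (C) RPKM in males, from 115 to 203 reads. The 3 male libraries lay close together inside the range of the female ones, where female B was the lowest of all. Its relative Trpc7 (ENSMUSG00000021541, chromosome 13, 56773113 to 56895789, minus strand, 13 exons of 3675 bases) stood at 0.548 (A), 0.868 (B) and 0.982 (C) RPKM in females, against 0.509 (A), 0.919 (B) and 0.476 (C) RPKM in males. Female A, male A and male C were low and the other libraries high, so each sex had libraries at both ends. The Trpc7 reads numbered 26 to 86 per library, so counting error alone gives a coefficient of variation of 13.2% against the 32.0% observed. For Trpc4, Trpc6 and Trpc1 the observed coefficients were 17.0%, 18.2% and 25.2%, against 5.25%, 7.80% and 5.34% from counting.

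The subunit gene Trpc1 (ENSMUSG00000032839, chromosome 9, 95705082 to 95750375, minus strand, 12 exons) stood at 2.94 (A), 2.34 (B) and 1.83 (C) RPKM in females, against 2.43 (A), 1.501 (B) and 1.73 (C) RPKM in males, from 207 to 459 reads. Female A was highest and male B lowest, with overlap between the sexes. Its mean was 2.13 ± 0.536 RPKM and that of Trpc6 2.65 ± 0.482 RPKM (SD, n = 6). Biological coefficients of variation in the edgeR fit were 0.211 for Trpc4, 0.243 for Trpc1, 0.252 for Trpc6 and 0.321 for Trpc7, next to a median of 0.238 over all 15026 tested genes. Trpc7 was thus above 77.8% of tested genes in this measure and Trpc4 above 36.1%.

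The order of levels was tested within libraries. Each of the 15 pairs of genes was compared by the difference of log2(RPKM + 0.1) in each library, by an exact permutation test that flips the signs of the 6 differences (two-sided), adjusted over the 15 pairs by Benjamini-Hochberg. The added constant shrinks differences between low genes. A bias tied to a gene, such as an error in its length, is alike in all 6 libraries, and the p-values do not cover it. In 13 pairs every library gave the same order, each with exact permutation p = 0.03125, the smallest that 6 libraries allow, and adjusted p = 0.0361. Trpc2 takes part in 4 of these 13, and its 0 reads may be set by how shared bases were counted, as described with its locus, so its place in the order is not a measured level. Among the 10 pairs without Trpc2, 9 had the same order in every library. The pairs of Trpc5 with the detected genes are among these 9, and its 4 reads in all left little room for another order. Trpc4 lay above Trpc6 by 0.93 ± 0.36 log2 units and above Trpc1 by 1.24 ± 0.40 log2 units, Trpc6 above Trpc7 by 1.78 ± 0.58 and Trpc1 above Trpc7 by 1.46 ± 0.64 log2 units (SD, n = 6, in 6 of 6 libraries each). Trpc1 lay 0.31 ± 0.41 log2 units below Trpc6, with exact permutation p = 0.156 (adjusted p = 0.167) and the lower level in 5 of 6 libraries, and Trpc2 and Trpc5 were not distinguished (exact permutation p = 0.5, adjusted p = 0.5).

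The place of Trpc1 depended on the gene length used. The deposited length of 8030 bases includes 3471 bases that GENCODE release M21 (GRCm38) places only in retained-intron transcripts of Trpc1, and the longest coding transcript is 4559 bases. Over that length Trpc1 averaged 3.75 ± 0.944 RPKM, against 2.46 ± 0.448 RPKM for Trpc6 over its longest coding transcript of 3259 bases (SD, n = 6). Trpc1 then lay above Trpc6 by 0.57 ± 0.42 log2 units in 6 of 6 libraries, with exact permutation p = 0.03125 (adjusted p = 0.0361). Trpc1 was no longer resolved from Trpc4, with a difference of -0.45 ± 0.41 log2 units and exact permutation p = 0.0625 (adjusted p = 0.067), lower in 5 of 6 libraries. Trpc4 and Trpc7 changed little, at 5.11 ± 0.870 and 0.749 ± 0.240 RPKM. The counts are sums over each gene, so reads inside the retained-intron bases cannot be separated from the rest. Any such reads were kept and raise the 3.75 RPKM of Trpc1. For Trpc6, reads counted over 3029 bases were divided by 3259, and its coding transcripts together cover 5066 bases. A change of length shifts the difference almost equally in every library, so these p-values do not tell which length is right. The longest coding transcript was chosen as length after the data were examined.

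**Figure D2:**
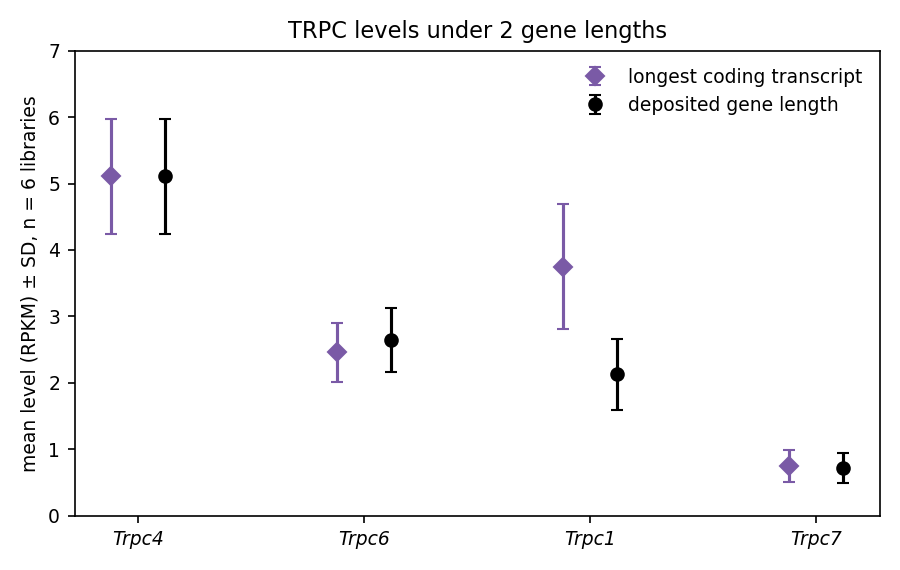
Mean level of the 4 detected TRPC genes (RPKM, vertical axis) over the length of the longest coding transcript (diamonds) and over the deposited gene length (circles), with SD over 6 libraries. Trpc1 lies at 3.75 RPKM over the coding transcript and at 2.13 RPKM with the deposited length, on either side of Trpc6.

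Trpc5 (ENSMUSG00000041710, chromosome X, 144381671 to 144688180, minus strand, 11 exons of 5014 bases) had 4 reads in all. Female C and male A had 2 reads each and the other libraries 0, a mean of 0.00582 ± 0.00904 RPKM (SD, n = 6). A count of 0 allows up to 0.191 CPM in male C and 0.125 CPM in female B, for counting error only. The genes Trpc5os, Gm15071 and Mageb16-ps1 lie within the Trpc5 span but share no exonic base with it, and each had 0 reads in all libraries. The RefSeq model of Trpc5 runs 4344 bases past the 3′ end of the deposited one, and reads in that stretch were not counted for Trpc5. Trpc4, the closest relative of Trpc5, had 2181 reads over the 6 libraries.

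Trpc2 (ENSMUSG00000100254, chromosome 7, 102083116 to 102096396, plus strand, 13 exons of 2874 bases) had 0 reads in each library, but none of its exonic bases was its own in the deposited annotation. Of these bases 2803 (97.5%) are shared with Xntrpc, a read-through gene on the same strand, and the other 71 with Xndc1, the gene upstream. Xndc1 had 55 (A), 98 (B) and 71 (C) reads in females, against 55 (A), 86 (B) and 37 (C) reads in males. For Xntrpc these were 0 (A), 2 (B) and 3 (C) reads in females, against 2 (A), 2 (B) and 1 (C) reads in males. Among protein-coding genes with at least 95% of their exonic bases shared with another listed gene on the same strand, 64 of 74 (86.5%) had 0 reads in all libraries, against 4041 of 21323 (19.0%) of the other protein-coding genes. No source used here says how reads that fall in more than 1 gene were treated, and the count of 0 for Trpc2 cannot be read as absence of its transcript.

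The only exonic bases of Xntrpc outside the other genes are 468 at its 3′ end, just past the deposited end of Trpc2. RefSeq places these 468 bases in Trpc2 as well. If reads shared between genes were left out of the counts, which the sources do not say, the 10 reads of Xntrpc over the 6 libraries fell in these bases and correspond to 0.160 ± 0.0889 RPKM over this length (SD, n = 6), from 0 in female A to 0.269 in female C. This value is on the same per-length scale as the 0.717 ± 0.230 RPKM of Trpc7. Of the 8 genes listed for vomeronasal and olfactory neurons, the receptor gene Vmn2r26 had 0 reads and the olfactory marker gene Omp averaged 0.222 ± 0.0819 RPKM. The other members above 1 RPKM, the G protein genes Gnao1 at 100.3 ± 11.8 RPKM and Gnal at 41.6 ± 2.13 RPKM, are also used widely by other neurons.

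**Figure D3:**
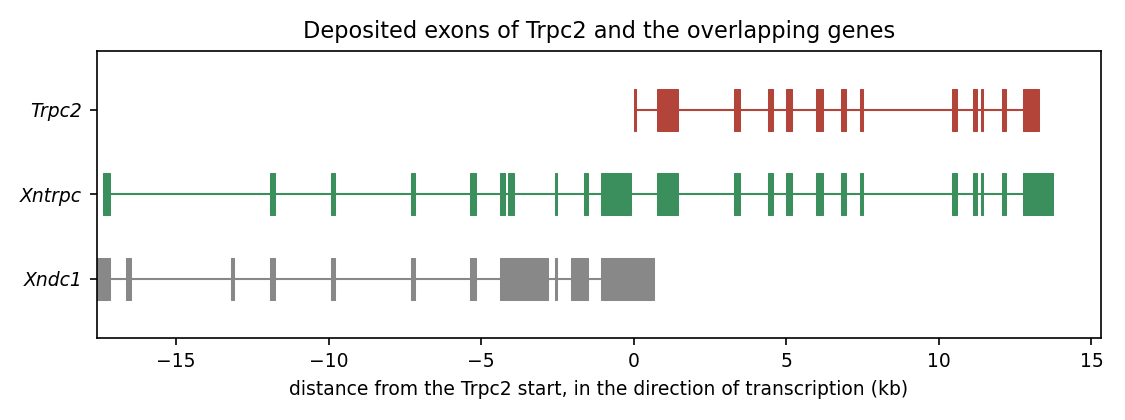
Deposited exons (boxes) of Trpc2, Xntrpc and Xndc1 along the plus strand, as distance in kilobases from the Trpc2 start. Every Trpc2 exon is matched by Xntrpc or, for the first 71 bases, by Xndc1, and only the last 468 bases of Xntrpc lie outside the other genes.

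Promoter windows are shown because the members differ widely in their number of CpG, a cytosine followed by a guanine, a feature of many broadly active promoters. RefSeq windows of 300 bases (GRCm38.p6), 1 a gene and from 250 before to 50 after an annotated start, matched all 6 members. The start used is the outermost RefSeq start for Trpc2 and Trpc5, but lies 473 bases downstream of it for Trpc4, 275 for Trpc6, 179 for Trpc7 and 38 for Trpc1. For Trpc2, Trpc4, Trpc5 and Trpc7 it is the deposited gene's start. Promoters at other starts were not analysed here. Trpc1, Trpc6 and Trpc4 held 22, 17 and 16 CpG, and Trpc5, Trpc2 and Trpc7 held 9, 4 and 3, next to a median of 7 over 32851 windows. Of the genes with at least 16 CpG in this window 84.8% of 8234 had a mean of at least 1 CPM, and of those with at most 9 CpG 20.0% of 8245 did. These limits were set after the members' counts were seen, and Trpc7 was detected although it held the fewest CpG of the 6. The windows of the most abundant gene (Trpc4, chr3:54155807-54156106, plus strand), of the lowest detected one (Trpc7, chr13:56895740-56896039, minus strand) and of Trpc5 (chrX:144688131-144688430, minus strand) read as follows 5′ to 3′, with each CpG in capitals.
Trpc4: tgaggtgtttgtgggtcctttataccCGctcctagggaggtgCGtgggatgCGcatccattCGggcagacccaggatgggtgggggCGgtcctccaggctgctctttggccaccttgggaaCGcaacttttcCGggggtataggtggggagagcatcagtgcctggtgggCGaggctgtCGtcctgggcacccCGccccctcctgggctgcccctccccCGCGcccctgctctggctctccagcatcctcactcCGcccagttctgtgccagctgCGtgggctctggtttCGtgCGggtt
Trpc7: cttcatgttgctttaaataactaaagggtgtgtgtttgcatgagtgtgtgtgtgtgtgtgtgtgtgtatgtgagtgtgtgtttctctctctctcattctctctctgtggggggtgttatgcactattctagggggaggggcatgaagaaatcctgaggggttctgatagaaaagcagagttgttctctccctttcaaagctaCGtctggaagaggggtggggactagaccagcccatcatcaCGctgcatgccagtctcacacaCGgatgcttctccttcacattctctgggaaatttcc
Trpc5: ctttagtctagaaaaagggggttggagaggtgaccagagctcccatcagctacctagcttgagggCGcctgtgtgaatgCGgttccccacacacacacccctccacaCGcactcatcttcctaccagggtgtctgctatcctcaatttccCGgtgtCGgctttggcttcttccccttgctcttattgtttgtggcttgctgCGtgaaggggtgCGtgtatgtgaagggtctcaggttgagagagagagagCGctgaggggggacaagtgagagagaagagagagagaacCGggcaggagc
The Trpc4 window carries its CpG along its whole length, while those of Trpc7 lie in its 3′ part and a GT repeat lies in its 5′ part. The GC box GGGCGG, searched on both strands, was found 3 times in the Trpc4 window, 3 times in that of Trpc1 and in none of the other 4, and 35.7% of all windows hold it. The letters TATAAA of the TATA box were found once among the 6 windows, in that of Trpc4 (13.6% of all windows). That match lies on the strand opposite to the one printed, near the 5′ end of the window and away from the annotated start. The Runx core TGTGGT was found 2 times in the window of Trpc2 and in no other (16.8% of all windows), and the box CCAAT in none (37.4% of all windows).

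Female and male libraries were compared because sex is the labelled difference of the series. Trpc4 averaged 5.60 ± 0.652 RPKM in female libraries and 4.62 ± 0.862 RPKM in male libraries (SD, n = 3 each, also below). Trpc1 averaged 2.37 ± 0.557 RPKM in females and 1.89 ± 0.486 RPKM in males. Trpc6 averaged 2.60 ± 0.733 RPKM in females and 2.69 ± 0.190 RPKM in males, and Trpc7 0.799 ± 0.225 RPKM in females and 0.635 ± 0.247 RPKM in males. Only these 4 members passed the filter on low counts, and 0 of 4 were called by edgeR's quasi-likelihood test with Benjamini-Hochberg adjustment over 15026 genes, of which 0.0333% were called. None of the 4 had an unadjusted p below 0.05, which 1.10% of tested genes had, and DESeq2 and limma-voom called 0 members. The log2 fold change, female over male, was 0.28 for Trpc4 with a 95% interval of -0.20 to 0.76 (edgeR adjusted p = 0.9997, as for the other 3 genes) and 0.32 for Trpc1 with an interval of -0.25 to 0.90. It was -0.06 for Trpc6 (-0.65 to 0.54) and 0.33 for Trpc7 (-0.51 to 1.16). These intervals leave room for differences of about their bounds. Without male A the log2 fold change was 0.15 for Trpc4, 0.55 for Trpc1, 0.0030 for Trpc6 and 0.19 for Trpc7. In no member did all 3 female libraries lie above or below all 3 male ones, which 3.17% (above) and 2.53% (below) of tested genes did. X-linked Trpc5 had too few reads for a comparison, and Trpc2 had none.

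**Figure D4:**
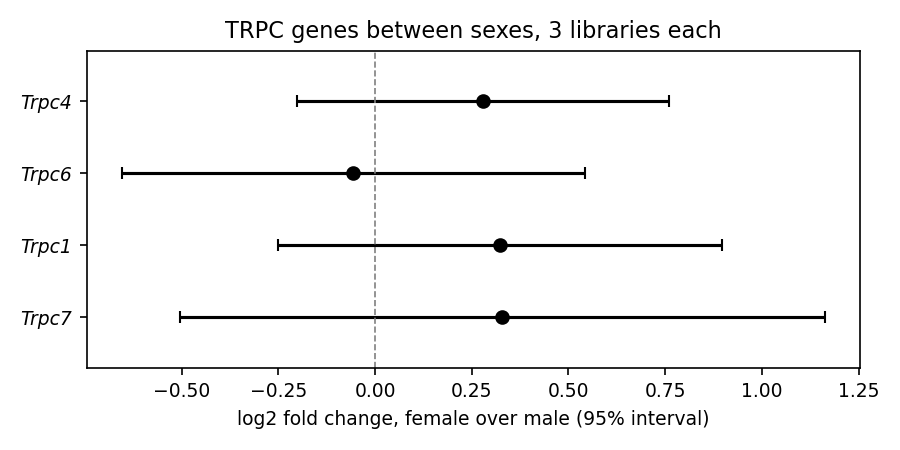
Log2 fold change, female over male, of the 4 tested TRPC genes (points) with 95% intervals from the edgeR fit. All 4 intervals cover 0, and that of Trpc7, the gene of fewest reads, is the widest at -0.51 to 1.16.

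Among 27 TRP channel genes read here, Trpc4 ranked 4th by mean level, Trpc6 7th, Trpc1 9th and Trpc7 13th, with Trpc5 and Trpc2 at ranks 24 and 27, all by deposited length. At its 3.75 RPKM over the coding transcript, with the other genes as deposited, Trpc1 would lie between Trpm7 at 4.35 and Pkd2l2 at 2.66 RPKM. The capsaicin receptor gene Trpv1 led at 33.9 ± 9.45 RPKM, followed by Trpv2 at 20.2 ± 4.68 RPKM and the lysosomal channel gene Mcoln1 at 6.66 ± 3.92 RPKM. Mcoln1 stood at 11.1 RPKM in female C and 12.2 RPKM in male B, and at 3.63 to 4.97 RPKM in the other libraries. Trpc4 lay above Mcoln1 in female A, female B and male C, and this pair was not tested. The 4 detected members were each compared with Trpv1, Trpm7, Trpa1 and Trpm8, chosen after their levels were seen, by the same sign-flip test adjusted over 16 tests. Only deposited lengths were used for these tests, and a bias tied to a gene is again not covered by the p-values. Trpc4 lay 2.68 ± 0.33 log2 units below Trpv1 in 6 of 6 libraries, with exact permutation p = 0.03125 (adjusted p = 0.0357). It lay above the irritant receptor gene Trpa1 by 3.26 ± 0.42 and above the cold receptor gene Trpm8 by 2.45 ± 0.62 log2 units, each in 6 of 6 libraries with the same exact permutation p. Trpc4 was not resolved from the ubiquitous channel-kinase gene Trpm7 (0.25 ± 0.37 log2 units, exact permutation p = 0.188, adjusted p = 0.2, above in 4 of 6 libraries). Trpc7 was not resolved from Trpm8 (-0.25 ± 0.52 log2 units, exact permutation p = 0.281, adjusted p = 0.281), and it lay above Trpa1 by 0.56 ± 0.48 log2 units in 6 of 6 libraries.

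**Figure D5:**
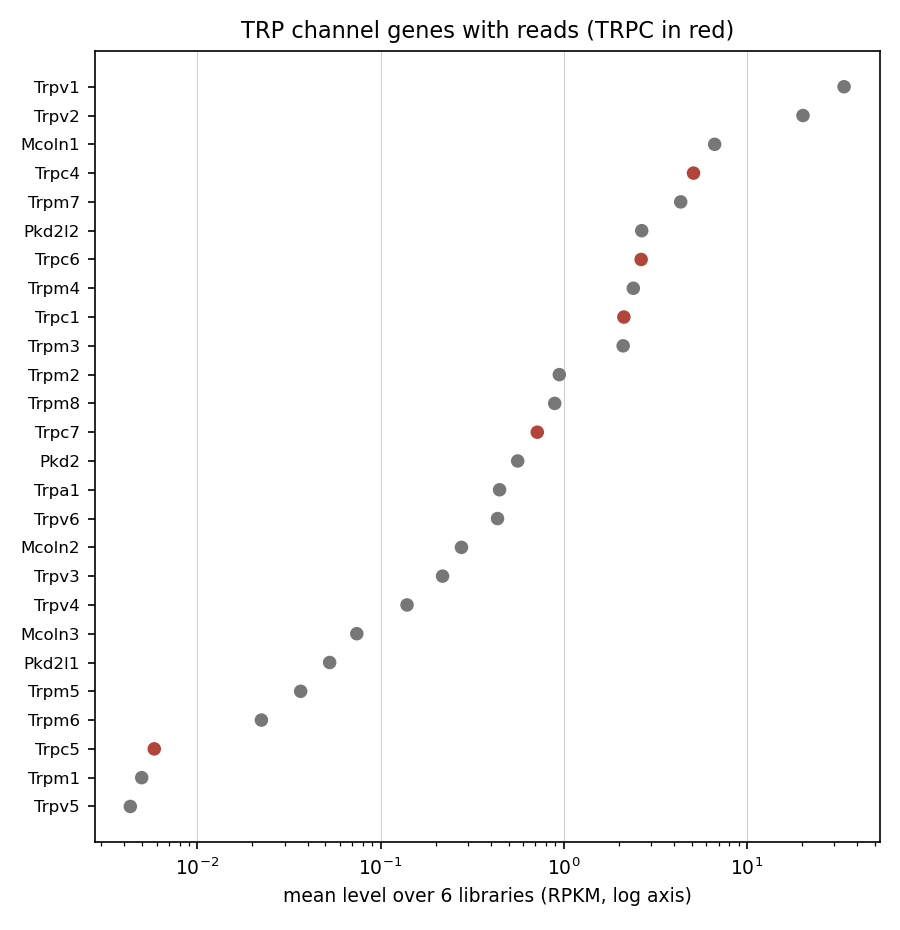
Mean level over 6 libraries (RPKM by deposited length, log axis) of the TRP channel genes with at least 1 read, from highest at the top, with TRPC genes in red. Trpc2, at 0 reads, is not drawn. By mean, Trpc4 at 5.11 RPKM stands below Trpv1, Trpv2 and Mcoln1, but it lay above Mcoln1 in female A, female B and male C.

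Genes of the pathway that opens TRPC channels were read from lists of receptors, G proteins, lipases and calcium entry. Of 18 Gq and phospholipase C genes 14 reached a mean of 1 CPM, beside 32.2% of all listed genes. That share also covers genes not classed as protein-coding, and it stands beside the counts of the lists below as well. Whether the lists differ from other genes in detection was not tested. The G protein genes Gnaq and Gna14 averaged 187.9 ± 14.1 and 142 ± 23.4 RPKM and Gna11 28.8 ± 5.21 RPKM, while the lipase genes Plcd4 and Plcb3 averaged 22.4 ± 2.63 and 11.9 ± 3.95 RPKM and Plcb2 0.0102 ± 0.00688 RPKM. Among 21 receptors that signal through phospholipase C, 16 were above 1 CPM, led by the itch and pain receptor genes Mrgprx1 at 217 ± 24.0 and Mrgprd at 98.4 ± 15.1 RPKM and the endothelin receptor gene Ednrb at 88.2 ± 14.9 RPKM, with the bradykinin receptor gene Bdkrb1 at 0 reads. Mrgpr genes are close copies of each other, so their reads may be split between them.

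Enzymes that make or use diacylglycerol, the lipid that opens Trpc6 and Trpc7 channels, were detected in 17 of 18 cases. The diacylglycerol kinase gene Dgkh led at 413.9 ± 68.5 RPKM, followed by the protein kinase C genes Prkca at 36.9 ± 5.78 and Prkcd at 28.6 ± 3.60 RPKM. Of 11 genes of store-operated entry and calcium release 9 were above 1 CPM. The calcium sensor gene Stim1 averaged 9.06 ± 1.13 RPKM, the pore genes Orai2 6.67 ± 1.16 and Orai1 1.08 ± 0.358 RPKM, Stim2 4.23 ± 0.637 RPKM and the release channel gene Ryr1 0.0372 ± 0.0130 RPKM. All 14 matched genes of 15 listed as TRPC scaffolds and partners were detected, with Stmn3 at 1677 ± 218, the immunophilin gene Fkbp1a at 201 ± 90.6, the caveolin gene Cav1 at 149 ± 8.11 and the scaffold gene Homer3 at 0.411 ± 0.268 RPKM. None of the 92 genes tested in these lists and in that of other TRP channels was called between sexes by edgeR, beside 0.0333% of all tested genes, and 2 of 92 had an unadjusted p below 0.05, beside 1.10% of all. The median log2 fold change, female over male, was 0.30 over the 4 TRPC genes, 0.20 over other TRP channels, 0.04 over scaffolds, 0.01 over Gq and phospholipase C genes, -0.0099 over diacylglycerol enzymes, -0.04 over receptors and -0.20 over store-operated entry and release, beside -0.0050 over all tested genes.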

How the data were processed

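The authors deposited a table of 41388 genes for each library with exon coordinates, gene length, read count, CPM and RPKM, on GRCm38.p2. Counting used featureCounts 1.4.5 (Subread), per the submitters' processing notes; aligner, annotation release, strand setting and handling of reads shared by genes remain not given in the sources used here. Per the labels' protocols, 10 ng of total RNA was amplified with a SMARTer kit and libraries with 12 PCR cycles. The deposited CPM values and the deposited RPKM values are the deposited count scaled to the library total and then to the deposited length, as checked gene by gene, so both were recomputed with TMM-scaled library sizes. Symbols came from GENCODE M21 (40254 identifiers, 97.3%).

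Sex was tested with edgeR 4.0.16 in R 4.3.3 (filterByExpr, quasi-likelihood test, two-sided, Benjamini-Hochberg at 0.05, female over male), on all genes at once and checked on simulated data; DESeq2 1.42.0 and limma-voom (limma 3.58.1) were alternatives. Standard errors are the fold change divided by the square root of F. Sign-flip tests used all 64 flips. Fold-change intervals and the limit of a 0 count (3 reads) are at 95%, and the limit covers counting error only, because amplified reads lacking molecular identifiers do not count independent molecules. The members, lists and tests were chosen with earlier results of these data known; named genes are the 6 members, overlapping genes, the highest and lowest of each list, and the nearest profiles; any further gene was picked once its values were known. The lowest member of 1 list is not reported here. The letters A, B and C gave correlations of 0.28, -0.29 and -0.08 between same-letter libraries of the sexes, so they were not used as pairs. Across letters, female C gave 0.55 with male B and -0.48 with male A. What these libraries share was not tested. Alternatives are other size factors, filters, tools and pseudocounts, CPM for RPKM, a letter block, each library left out and coding transcript lengths.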

Additional observations from a re-analysis of the deposited data

How the results depend on the processing

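The order of the TRPC genes was the same in every library for 13 of 15 pairs with the deposited lengths, and also for 13 pairs with a pseudocount of 1, with library totals, with CPM in place of RPKM and with coding transcript lengths, although the unresolved pairs were not always the same ones; leaving out 1 library at a time gave 13 to 14. Of these, 4 pairs hold Trpc2 at 0 reads and could not change. Pairs of Trpc5, at 4 reads in all, with a detected gene had little room to change either. Among the 10 pairs without Trpc2, 9 kept 1 order in each of these settings, and 10 did without female B. The exception was Trpc1 with Trpc6 or with Trpc4. The number of members above 1 CPM stayed at 4 under each size factor and each library left out. With the length of the longest coding transcript, added after the data were examined, the mean of Trpc1 moved to 3.75 RPKM; the other levels moved by less than 1 SD under each alternative run. Between sexes edgeR called 5 genes with TMM, 12 with no filter on low counts, where 25803 genes were tested, and 5 with the letter as replicate block, and none of the members in any of these. Trpc6 changed sign, uncalled, to 0.16 without female B and to 0.0030 without male A, within a range of -0.23 to 0.16 over single libraries left out. Trpc1, Trpc4 and Trpc7 kept their sign in all 12 alternatives, uncalled at adjusted p of 0.782 or more, but single libraries moved them by more than 1.5 times: Trpc1 to 0.14 without female A, 0.18 without male B and 0.55 without male A; Trpc4 to 0.15 without male A and 0.19 without female A; and Trpc7 to 0.16 without female C, 0.17 without male C, 0.19 without male A, 0.53 without female A and 0.70 without male B. Few reads limit the precision of Trpc7 and Trpc5.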

Other observations

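Levels of the 4 detected TRPC genes were set against each other across the 6 libraries in 6 pairs. Pearson's r of log2 RPKM lay between -0.42 (Trpc1 and Trpc7, exact permutation p = 0.403, Spearman's rho -0.26 with exact permutation p = 0.658, r = 0.0026 without the 2 libraries farthest from the Trpc1 median) and 0.14 (Trpc1 and Trpc6, exact permutation p = 0.794, rho 0.60 with exact permutation p = 0.242, r = -0.30 without the 2 farthest). Over all pairs r without the 2 farthest libraries ran from -0.79 (Trpc1 and Trpc4) to 0.26 (Trpc4 and Trpc6), and no pair had an adjusted exact permutation p under 0.915.

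The tested genes whose profiles over the 6 libraries were closest to each member, by the root mean square difference of mean-centred log2 CPM, were Sorcs1, Gm10320 and Yod1 for Trpc4 (0.04 to 0.07, next to a median of 0.36 over tested genes), Eif4a2, Lgalsl and Zfp961 for Trpc1 (0.05 to 0.06, median 0.43), 1810044D09Rik, Galm and Ccdc173 for Trpc6 (0.08 to 0.09, median 0.38) and Gmip, Klhl12 and Ift57 for Trpc7 (0.05 to 0.11, median 0.50). They are the nearest of all tested genes over only 6 libraries.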
